A study of Mus musculus with 12 samples.

Results

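Zinc finger protein genes were taken as the protein-coding genes whose symbol starts with Zfp followed by a number. The rule found 33 of the 27942 genes analysed, and it did not use expression. GENCODE release M21, the mouse annotation on GRCm38 (mm10), lists 394 such genes, and the other Zfp genes, like most protein-coding genes, were not analysed here. The RNA came from C2C12 cells, a single immortalised mouse myoblast line, grown to 80% density with 10% fetal bovine serum. A switch to 2% horse serum then let them form myotubes until day 7. Control cells were untreated and the others received 4-octyl itaconate (OI), an itaconate ester that enters cells, at 25 µmol/L. Both groups were put through this differentiation procedure, and each had 3 libraries. A second set of 3 control and 3 OI samples was not analysed here. Whether the libraries of a group are separate cultures is not stated in the labels, so each p-value reflects library-to-library spread that may be no more than technical. The question of the series is how OI changes the transcriptome of differentiating muscle cells.

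In a classical zinc finger, a pair of cysteines and a pair of histidines hold a zinc ion, and a row of such fingers reads DNA bases. In many mouse Zfp proteins the row follows a KRAB domain, which recruits the corepressor Trim28 (KAP1) and histone methylation, and these KRAB zinc finger proteins are known for silencing retroelements. Their genes grew by tandem duplication and lie in clusters, so that neighbours can be nearly the same in sequence. A few members are of another kind, such as Zfp131, whose BTB domain mediates protein contacts, and Zfp703, a corepressor of the NocA-like family.

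The deposited domain annotation gave a KRAB domain to 26 of the 33 genes. A search of the GENCODE coding sequences for the classical finger spacing found fingers in 29 genes, with 3 to 23 fingers and a median of 11. Zfp748 held 23, Zfp712 held 20 and Zfp131 held 3. No such finger was found in Zfp703, Zfp804b, Zfp781 or Zfp865, of which Zfp781 has a KRAB domain. The row named Zfp865 (ENSMUSG00000116184) is a gene of 1129 bases with no annotated domain, which lies wholly within the exons of a second gene of that symbol, and 808 of its bases are shared with Zfp784 on the opposite strand. The genes lie on 8 chromosomes. By the rule of neighbouring starts within 1 Mb, 22 of them fell into 8 groups, and 30 of the 33 had another GENCODE Zfp gene within 1 Mb.

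The coding sequences of fingers show how alike some of these genes are, which bears on how their reads can be told apart. Each sequence below is 28 codons from the GENCODE M21 transcript, a finger and the linker after it, with the codons of its cysteines and histidines in capitals. For Zfp966, Zfp969 and Zfp967 on chromosome 2 it is the first finger, and the 3 sequences are the same.
Zfp966: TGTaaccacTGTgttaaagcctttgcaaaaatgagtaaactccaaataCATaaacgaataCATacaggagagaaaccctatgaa
Zfp969: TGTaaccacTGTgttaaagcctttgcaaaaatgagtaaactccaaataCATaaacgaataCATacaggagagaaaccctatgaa
Zfp967: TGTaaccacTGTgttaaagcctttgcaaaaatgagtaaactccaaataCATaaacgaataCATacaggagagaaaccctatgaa
For the pairs Zfp960 and Zfp97, and Zfp955a and Zfp955b, both on chromosome 17, it is the first finger in which the copies differ, by 1 base and by 5 bases.
Zfp960: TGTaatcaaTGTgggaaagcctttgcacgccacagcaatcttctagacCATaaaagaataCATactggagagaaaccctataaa
Zfp97: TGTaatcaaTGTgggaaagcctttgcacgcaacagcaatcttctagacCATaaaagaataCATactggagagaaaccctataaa
Zfp955a: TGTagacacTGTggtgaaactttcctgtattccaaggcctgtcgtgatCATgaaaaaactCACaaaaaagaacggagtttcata
Zfp955b: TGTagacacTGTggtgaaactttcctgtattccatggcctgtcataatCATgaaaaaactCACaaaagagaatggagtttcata
Zfp87 and Zfp748, neighbours on chromosome 13, are shown with their first fingers because their OI means lay on opposite sides of the control means. These differ at 30 of 84 bases.
Zfp87: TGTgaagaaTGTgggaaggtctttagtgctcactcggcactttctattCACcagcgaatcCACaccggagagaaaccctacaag
Zfp748: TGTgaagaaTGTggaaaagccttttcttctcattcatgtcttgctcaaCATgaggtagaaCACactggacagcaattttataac

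Library sizes, recovered from the FPKM values, ranged from 24441000 to 36274000 reads or fragments. FPKM is the number of fragments per kilobase of gene, scaled to library size, so a level compared between genes depends on the gene length that the tables use. Control replicate 1 stood apart: the rRNA-derived locus AY036118 reached 70761 FPKM in it, where the other 5 libraries had 691 to 2450 FPKM, and the nuclear RNA Malat1 was at 1769 FPKM against 312 to 429 FPKM. The genes analysed took 23.9% of its reads, against 5.25% to 5.77% in the others. The Zfp genes together took 263 reads per 1000000 in that library and 276 to 289 in the remaining 5. Of 17 listed skeletal myotube markers, Tnnc1 and H19 were analysed here. Tnnc1, the slow troponin C, had 110 to 140 FPKM in control libraries and 21.9 to 24.7 FPKM with OI. H19 had 131 to 136 FPKM in control libraries and 24.1 to 32.1 FPKM with OI. The limma adjusted p was 1.9e-04 for Tnnc1 and 2.3e-04 for H19. For the Zfp genes, OI itself and a different extent of differentiation cannot be told apart here. None of the listed markers of fibroblasts, adipocytes, endothelial cells, leukocytes and neural cells was analysed here. In bulk RNA, fewer cells of a type and less RNA per cell cannot be told apart.

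Most of the Zfp genes were expressed at a low level. The mean over the 6 libraries was above 10 FPKM for 1 gene, between 5 and 10 for 5 genes, between 2 and 5 for 11, between 1 and 2 for 5, between 0.1 and 1 for 7 and under 0.1 for 4. The median gene had a mean of 2.13 FPKM. For the test, FPKM of 1 or more was required in at least 3 of the 6 libraries, which 23 of the 33 genes passed (69.7%), against 287 of the 2435 other protein-coding genes analysed here (11.8%). Among genes that passed, the median mean was 2.89 FPKM for the Zfp genes and 4.60 FPKM for the other protein-coding genes.

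**Figure D1:**
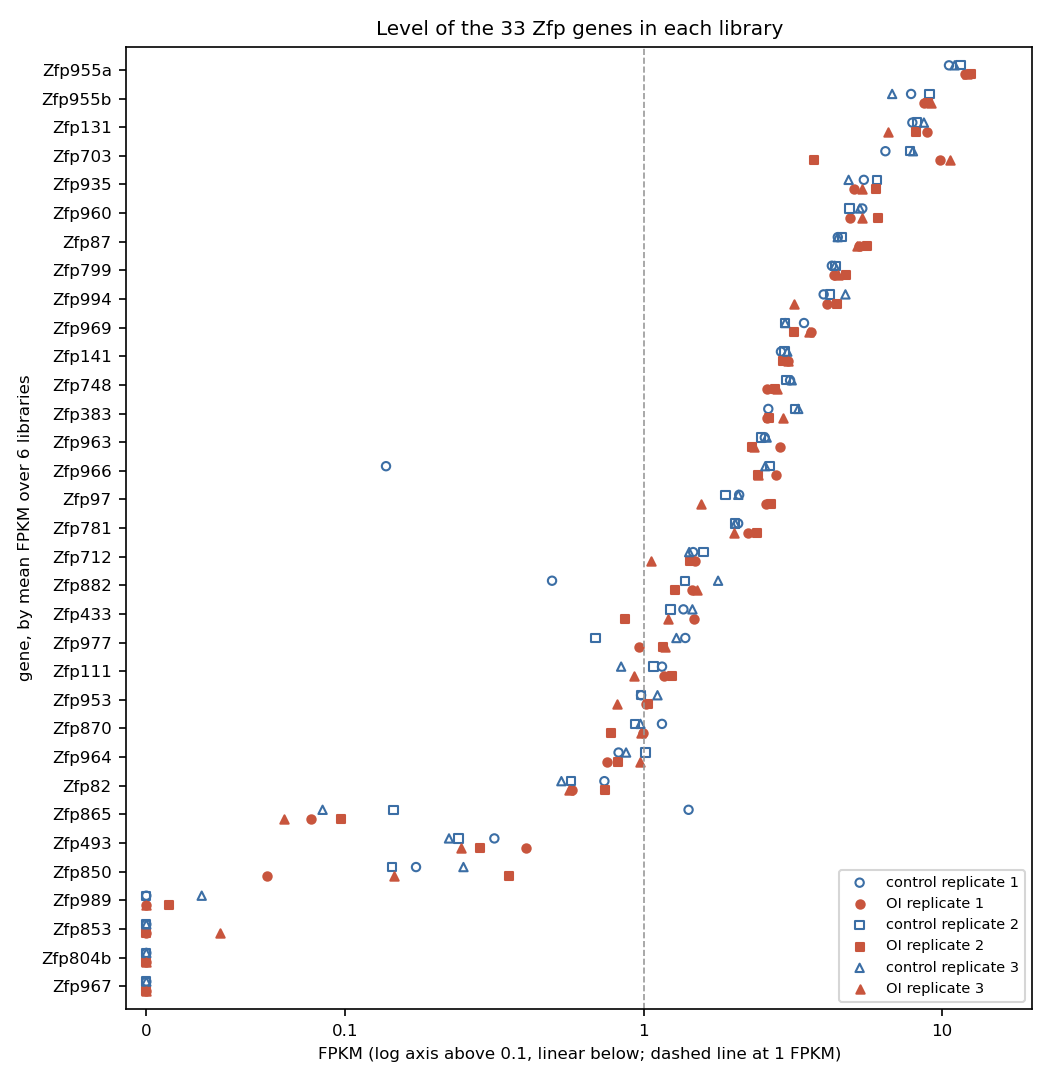
FPKM of the 33 Zfp genes in each library, on an axis that is logarithmic above 0.1 and linear below, with open blue symbols for control and filled red symbols for OI. Genes are ordered by their mean; the dashed line marks 1 FPKM, and Zfp966, Zfp882 and Zfp865 have control replicate 1 far from the other 5 libraries.

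No Zfp gene passed the test between OI and control. With limma on log2(FPKM + 1), 0 of 23 had a Benjamini-Hochberg adjusted p under 0.05, where 2.76% of all 1737 genes tested did. The lowest adjusted p was 0.230, for Zfp87. At an unadjusted p under 0.05 there was 1 Zfp gene, Zfp87, against 17.8% of all genes tested. Only 310 of the 1737 genes tested were protein-coding, the Zfp genes included. Shares over all genes tested, here and below, thus come mostly from other kinds of gene. A limma voom fit on recovered read numbers called 0 of 28 Zfp genes, beside 62 of all 3066 genes in that fit. Of the 28, again only Zfp87 had an unadjusted voom p under 0.05. The share of all genes at that level in the voom fit is not given here. Of the 23 genes in the first fit, the mean of log2(FPKM + 1) was higher in OI for 15 and lower for 8. The log2 differences ran from -0.13 (Zfp748) to 0.52 (Zfp966). Their median was 0.02, beside -0.02 over all genes tested.

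The intervals of the differences were narrow for most of these genes. For 20 of the 23, the limma 95% interval on the log2(FPKM + 1) scale lay within a 1.5-fold change in either direction. That scale understates the change of low genes. On recovered reads the interval was as narrow for 20 of 28, a wider set that includes genes below the filter. The 3 genes with wider intervals on the first scale were Zfp966, Zfp703 and Zfp882, where 1 library was far from the others. On recovered reads Zfp97, Zfp433 and Zfp977, also among the 23, had wider intervals as well. Between replicates of a group, the median coefficient of variation (SD over mean) of the 23 genes was 7.43% in control and 8.94% in OI.

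**Figure D2:**
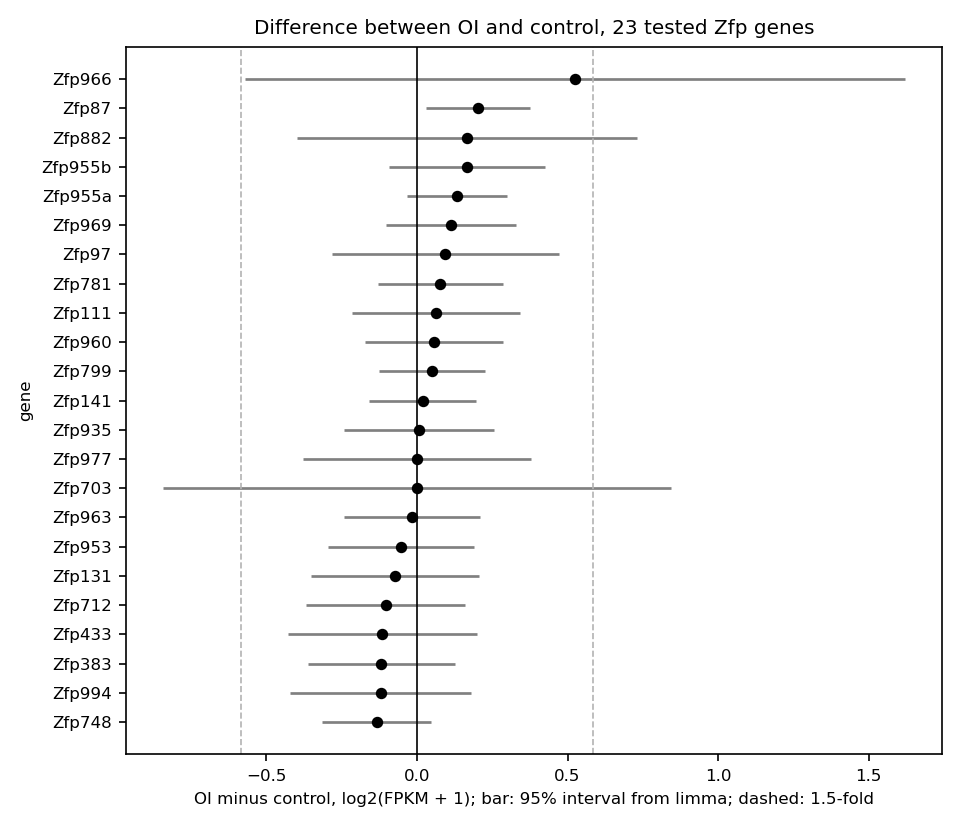
Difference between OI and control on the log2(FPKM + 1) scale for the 23 tested Zfp genes, with the limma 95% interval as a bar and dashed lines at a 1.5-fold change. Only the interval of Zfp87 (0.03 to 0.37) lies wholly on 1 side of 0, and that gene had an adjusted p of 0.230.

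Genes with a KRAB domain made up 21 of the 23 tested genes, including Zfp781, in which no classical finger was found. Of these 21, 14 had higher and 7 lower means of log2(FPKM + 1) in OI, with a median log2 difference of 0.05. The gene with the highest level was Zfp955a (ENSMUSG00000094441, chromosome 17, 33241519 to 33255040, minus strand). It was at 10.5, 11.5 and 11.0 FPKM in the control libraries and at 11.9, 12.5 and 12.1 FPKM in the OI libraries. Values are given here and below in the order of replicates 1 to 3. Coordinates are those of the deposited tables, on mm10. All 3 OI libraries lay above all 3 control libraries. The log2 difference was 0.13 ± 0.07 (SE), with a limma adjusted p of 0.379. Its copy Zfp955b (chromosome 17, 33289649 to 33303196, plus strand) was at 7.87, 9.06 and 6.80 FPKM in control and at 8.70, 8.95 and 9.18 FPKM in OI, and the groups overlapped. The coding sequences of the pair differ at 29 of 1635 bases, so that reads from shared stretches cannot be assigned to 1 of them. The deposited gene length is 1638 bases for both, little more than the coding sequence, whereas the GENCODE exons of Zfp955b cover 5788 bases, and their place in the order of levels depends on the length used. Zfp955b also shares 707 exonic bases on the opposite strand with the pseudogene Zfp422-ps, whose level was 4.48 ± 0.52 FPKM in control libraries and 5.27 ± 0.41 FPKM with OI (SD, n = 3 each).

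The groups did not overlap for 3 of the 23 genes (13.0%), Zfp955a, Zfp87 and Zfp748, where 23.6% of all genes tested showed no overlap. Zfp87 (chromosome 13, 67515781 to 67526177, minus strand) was at 4.47, 4.61 and 4.47 FPKM in control and at 5.26, 5.59 and 5.19 FPKM in OI. Every OI value was above every control value, by 0.20 ± 0.07 (SE) on the log2 scale. Zfp748 (chromosome 13, 67538641 to 67553830, minus strand) was at 3.09, 3.00 and 3.13 FPKM in control and at 2.59, 2.76 and 2.79 FPKM in OI. Here every OI value was below every control value, and the log2 difference was -0.13 ± 0.07 (SE; limma adjusted p = 0.413). The starts of the 2 genes are 22860 bases apart. The ratio of Zfp87 to Zfp748 within a library, chosen after the values were seen, was 1.47 ± 0.06 in control and 1.97 ± 0.10 in OI (SD, n = 3 each). Since neither gene's groups overlap and they lie on opposite sides, the ratio had to separate the groups. Its exact two-sided permutation p of 0.1, the lowest possible with 3 libraries each, was thus fixed in advance and adds no support. Zfp87 shares 298 exonic bases with the coding gene Gm26965 on the same strand, whose mean was 0.16 FPKM. Gm26965 was at 0.98 FPKM in OI replicate 2, the highest library for Zfp87, and at 0 in every other library. The part of this overlap in the Zfp87 values was not tested. Zfp748 shares 576 bases with the antisense gene 9430065F17Rik, whose mean was 0.02 FPKM.

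The same chromosome 13 group, between 67038596 and 67792512, holds Zfp712, Zfp953 and Zfp493. Zfp712 was at 1.46, 1.59 and 1.42 FPKM in control and at 1.49, 1.42 and 1.06 FPKM in OI, so that only OI replicate 3 lay below the control range. Zfp953, the lowest gene to pass the filter, was at 0.98, 0.98 and 1.11 FPKM in control and at 1.02, 1.03 and 0.82 FPKM in OI. In both the groups overlapped. Zfp493 did not pass the filter, with 0.22 to 0.40 FPKM over the 6 libraries. Elsewhere on this chromosome Zfp935 was at 5.46, 6.06 and 4.86 FPKM in control and at 5.06, 5.99 and 5.41 FPKM in OI, with a log2 difference of 0.01 ± 0.10 (SE). A second GENCODE gene named Zfp935 shares 1606 of its 2628 exonic bases, so its value is uncertain.

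Genes with the same coding sequence had unlike FPKM values. Zfp966 (ENSMUSG00000089756, chromosome 2, 175918881 to 175931100, minus strand), Zfp969 (175692223 to 175703646, minus strand) and Zfp967 (176521056 to 176532479, plus strand) have the same coding sequence of 1455 bases. Their deposited gene lengths are 2939 bases for Zfp966 and 1458 bases for the other two, so that FPKM values of the 3 are not per the same stretch of transcript. Zfp969 was at 3.44, 2.98 and 2.98 FPKM in control and at 3.65, 3.20 and 3.57 FPKM in OI, with overlapping groups and a log2 difference of 0.11 ± 0.09 (SE). Zfp967 was listed at 0 in all 6 libraries, where 3 reads would have been at most 0.084 FPKM. Since its coding sequence also occurs in Zfp966 and Zfp969, a silent gene and reads assigned to a copy cannot be told apart. Transcripts of 8 genes match Zfp969 at 90% identity or more over at least 80% of its length.

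Zfp966 was at 0.14 FPKM in control replicate 1 and at 2.65 and 2.56 FPKM in control replicates 2 and 3, against 2.77, 2.42 and 2.41 FPKM in OI. Control replicate 1, with about 10 recovered reads, lay far below the other 5 libraries, which had 182 to 262. The log2 difference of 0.52 ± 0.45 (SE; limma adjusted p = 0.613) was -0.03 without that library. The value of Zfp969 in control replicate 1 lay within the range of the other libraries. In those 5 libraries Zfp969 had 130 to 171 recovered reads, fewer than Zfp966, although its FPKM was higher. Zfp966, Zfp969 and Zfp967 together had 5.44 reads per 1000000 in control replicate 1, where the range elsewhere was 11.8 to 13.5. The part of the abundant rRNA and nuclear RNA of this library in this value, and in those of Zfp882 and Zfp865 given below, was not tested.

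The other pair on chromosome 17, Zfp960 (17064113 to 17089628) and Zfp97 (17121415 to 17146831), both on the plus strand, differs at 30 of 1638 coding bases. Zfp960 was at 5.40, 4.89 and 5.30 FPKM in control and at 4.90, 6.08 and 5.39 FPKM in OI. Zfp97 was lower, at 2.09, 1.88 and 2.07 FPKM in control and at 2.56, 2.66 and 1.55 FPKM in OI. OI replicate 3 was the lowest of the 6 libraries for Zfp97, and OI replicates 1 and 2 were the highest. The log2 differences were 0.06 ± 0.09 for Zfp960 and 0.09 ± 0.16 for Zfp97 (SE). For Zfp97 the value ran from 0.0014 without OI replicate 2 to 0.26 without OI replicate 3.

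**Figure D3:**
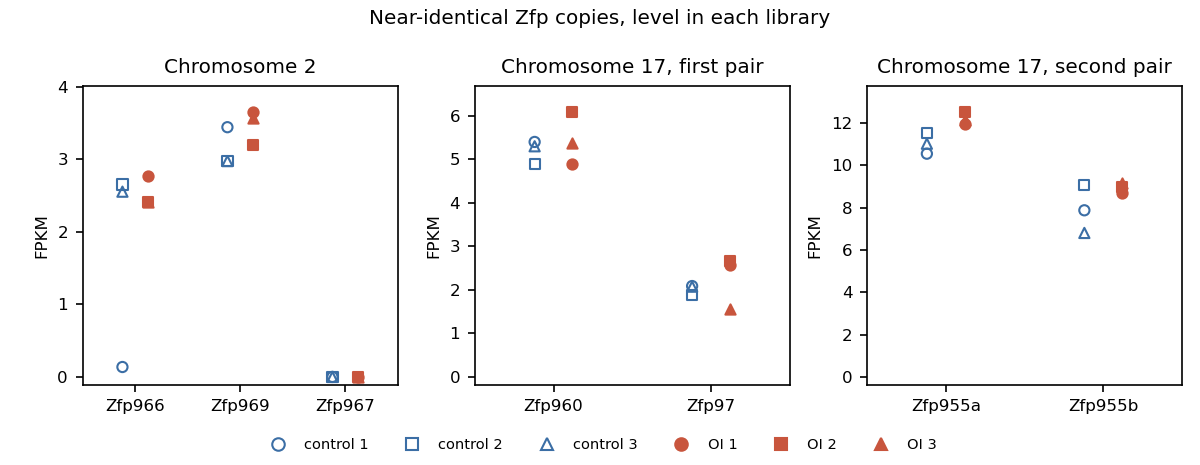
FPKM of Zfp966, Zfp969 and Zfp967, of Zfp960 and Zfp97, and of Zfp955a and Zfp955b in each library, with open blue symbols for control and filled red symbols for OI. The genes in each panel have identical or near-identical coding sequences but FPKM values that differ. For Zfp966 and Zfp969 the order depends on the deposited gene lengths. Control replicate 1 of Zfp966 sits at 0.14 FPKM.

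Among the remaining KRAB genes of chromosome 17, Zfp799 was at 4.27, 4.39 and 4.37 FPKM in control and at 4.36, 4.76 and 4.49 FPKM in OI, with a log2 difference of 0.05 ± 0.07 (SE). Zfp994 was at 4.01, 4.20 and 4.74 FPKM in control and at 4.11, 4.45 and 3.18 FPKM in OI, where OI replicate 3 was the lowest of the 6 libraries. Its log2 difference of -0.12 ± 0.12 (SE) was -0.0085 without that library and -0.20 without OI replicate 2. On chromosome 10, Zfp781 was at 2.07, 2.02 and 2.02 FPKM in control and at 2.24, 2.39 and 2.00 FPKM in OI. Its neighbour Zfp433 was at 1.36, 1.23 and 1.46 FPKM in control and at 1.47, 0.87 and 1.21 FPKM in OI. In each of these 4 genes the groups overlapped. Zfp781 and Zfp433 have a near-identical partner gene, Gm3055 for Zfp781 at 99.9% identity (1.48 ± 0.05 FPKM in control and 1.58 ± 0.18 in OI) and Gm32687 for Zfp433 at 99.9% identity (0.85 ± 0.15 and 0.83 ± 0.09; SD, n = 3 each).

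On chromosome 7, Zfp141 hardly varied, at 2.88, 2.96 and 3.03 FPKM in control and at 3.04, 2.93 and 3.06 FPKM in OI. Its log2 difference was 0.02, with a limma 95% interval from -0.16 to 0.20. Zfp383 was at 2.61, 3.22 and 3.29 FPKM in control and at 2.59, 2.64 and 2.92 FPKM in OI, with control replicate 1 at the OI level. The log2 difference was -0.12 ± 0.10 (SE; limma adjusted p = 0.612). It ran from -0.20 without control replicate 1 to -0.072 without control replicate 3. Zfp977, next to Zfp141, was at 1.38, 0.69 and 1.29 FPKM in control and at 0.96, 1.16 and 1.17 FPKM in OI, from 30 to 60 recovered reads. Zfp111 was at 1.15, 1.08 and 0.84 FPKM in control and at 1.17, 1.25 and 0.93 FPKM in OI. In both of these genes the groups overlapped.

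On chromosome 8, Zfp963 was at 2.54, 2.47 and 2.58 FPKM in control and at 2.86, 2.31 and 2.34 FPKM in OI. The coding gene Gm20422 shares 937 of its 2299 exonic bases on the same strand and was listed at 0. Zfp882 was at 0.49, 1.38 and 1.77 FPKM in control and at 1.45, 1.27 and 1.51 FPKM in OI. As with Zfp966, control replicate 1 was the low library, with 38 recovered reads against 122 to 168. The log2 difference of 0.17 ± 0.23 (SE; limma adjusted p = 0.786) was -0.09 without it.

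Of the members without a KRAB domain, Zfp131 and Zfp703 were tested. Zfp131 (chromosome 13, 119765187 to 119790889, minus strand), the BTB member, was at 7.95, 8.23 and 8.69 FPKM in control and at 8.88, 8.20 and 6.57 FPKM in OI. Its log2 difference was -0.07 ± 0.11 (SE; limma adjusted p = 0.817), and it was 0.04 without OI replicate 3, the lowest library.

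Zfp703 (chromosome 8, 26977325 to 26981461, plus strand) had the largest spread among OI libraries of the tested genes, with a coefficient of variation of 46.9%. It was at 6.45, 7.81 and 7.98 FPKM in control and at 9.85, 3.71 and 10.6 FPKM in OI. OI replicates 1 and 3 lay above all control libraries and OI replicate 2 below them, with about 424 recovered reads against 997 and 857. The log2 difference was 0.0011 ± 0.35 (SE), and 0.42 without OI replicate 2. Its exons share 459 bases with the antisense gene Gm45371, which was at 5.56, 4.50 and 4.84 FPKM in OI and at 3.48, 4.78 and 4.43 FPKM in control. OI replicate 2 was the lowest OI library for Gm45371 too, and it lay within the control range. The part of this overlap in the Zfp703 values was not tested.

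**Figure D4:**
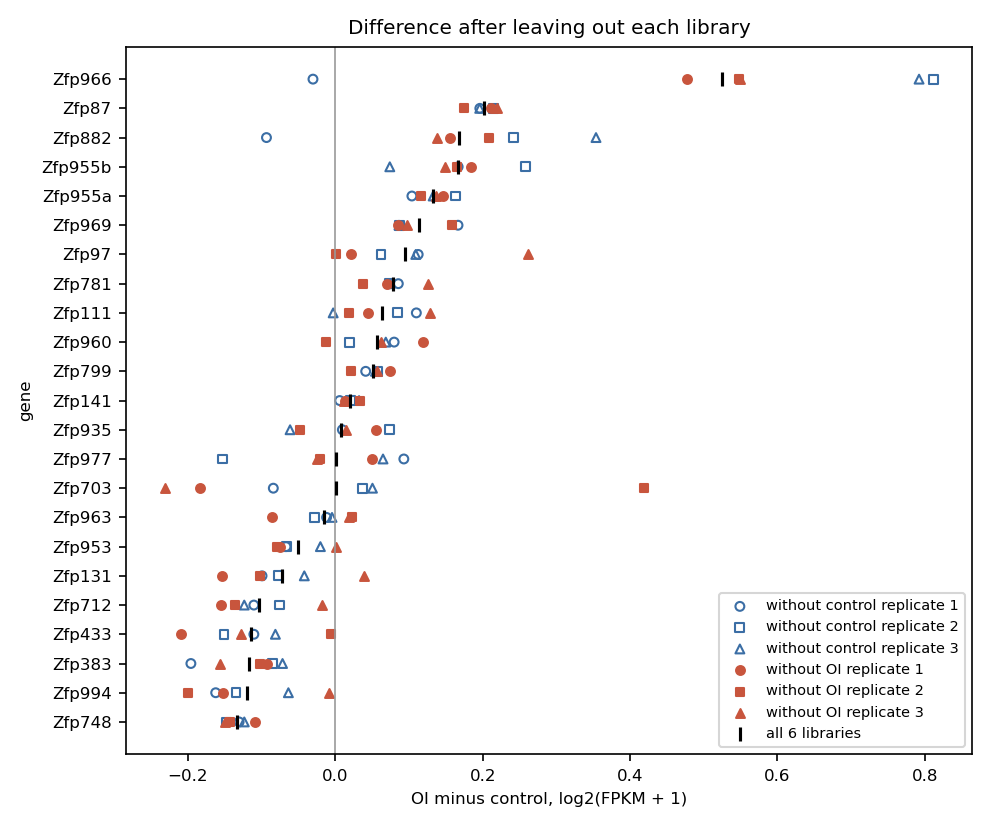
Difference between OI and control on the log2(FPKM + 1) scale after leaving out each library in turn, for the 23 tested Zfp genes, with a black bar for all 6 libraries. Zfp966 and Zfp882 move most without control replicate 1 and Zfp703 without OI replicate 2, while Zfp87 stays between 0.17 and 0.22 and Zfp748 between -0.15 and -0.11.

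The 10 genes that did not pass the filter were low in both groups. Just outside it were Zfp870 (0.78 to 1.15 FPKM over the 6 libraries), Zfp964 (0.75 to 1.01) and Zfp82 (0.53 to 0.74), and just inside it, above Zfp953, were Zfp111 (0.84 to 1.25), Zfp977 (0.69 to 1.38), Zfp433 (0.87 to 1.47) and Zfp882 (0.49 to 1.77). Zfp850 was between 0.061 and 0.35 FPKM. The row named Zfp865 was at 1.41 FPKM in control replicate 1, with 39 recovered reads, and between 0.069 and 0.15 FPKM in the other 5 libraries, with 2 to 5 reads. Zfp989 and Zfp853 reached at most 0.028 and 0.037 FPKM, with 3 reads or fewer in any library. Zfp804b and Zfp967 were listed at 0 in all 6 libraries. For Zfp804b that leaves a level of up to 0.028 FPKM in the shallowest library, the size of 3 reads, for counting error only.

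Shared sequence touched most of the tested genes. Of the 23 tested genes, 10 share exonic bases with another annotated gene and 8 have a near-identical copy, 1 gene having both. Reads of antisense partners cannot be told apart where strand was not used in counting. The 6 genes with neither were Zfp131, Zfp994, Zfp141, Zfp383, Zfp977 and Zfp111. None of the 6 passed limma, with adjusted p-values from 0.612 for Zfp383 to 0.999 for Zfp977, and their median log2 difference was -0.04.

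Other genes of the same kind were looked at in the same fit. Outside the Zfp symbols, 40 protein-coding genes carried a classical finger or KRAB domain in the deposited annotation, and 15 of them were tested. None passed limma, 10 had higher means in OI, and their median log2 difference was 0.02. At an unadjusted p under 0.05 there were 2 of the 15, Gm14403 and Gm28044, beside 17.8% of all genes tested. They are named after their values were seen, and in this fit their log2 differences were larger than that of any tested Zfp gene. Gm14403 was at 1.06, 1.09 and 1.03 FPKM in control and at 1.60, 1.90 and 2.61 FPKM in OI (log2 difference 0.55, limma adjusted p = 0.117). Gm28044 was at 0.37, 0.77 and 0.36 FPKM in control and at 1.07, 1.85 and 1.91 FPKM in OI (log2 difference 0.79, limma adjusted p = 0.101). No control library reached the filter level, so Gm28044 was tested only because its OI values were high. Its difference is thus no independent result. Its exons share 256 bases with those of Zfp953 on the same strand. Of 12 non-coding rows with a Zfp symbol 3 were tested and none passed: the pseudogenes Zfp862-ps (9.47 ± 0.81 FPKM in control, 9.60 ± 0.54 with OI), Zfp422-ps, given above, and Zfp419 (1.46 ± 0.28 and 1.56 ± 0.23; SD, n = 3 each). Of 8 other zinc finger factors found by symbol, 7 were listed at 0 throughout, and Klf6, a Krüppel-like factor, averaged 22.1 ± 2.31 FPKM without and 24.5 ± 1.15 FPKM with OI (SD, n = 3 each; limma adjusted p = 0.469). None of 26 listed genes for the KRAB corepressor complex and heterochromatin, such as Trim28 and Setdb1, was analysed here.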

How the data were processed

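RNA-seq of C2C12 cells, 3 control and 3 OI libraries, was analysed. The authors deposited FPKM values, 1 table per sample. The build mm10 and the tools StringTie 1.3.3b, HISAT2 2.1.0 and cutadapt 2.7 are named per the submitters' processing notes. The sources used here do not give the strand setting or the treatment of reads with several matches. Each table holds 27943 rows; 1 row with broken annotation was left out. No pair among the 6 libraries had identical values. Library sizes and approximate read numbers were recovered from FPKM and gene length, from the step that 1 read makes in genes of 1 exon (values within 0.01 of a whole number: 100%).

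Genes were tested with limma 3.58.1 (R 4.3.3) on log2(FPKM + 1), trend=TRUE, no block, two-sided, for genes with 3 or more libraries at FPKM of at least 1, with Benjamini-Hochberg adjustment over all 1737 genes and a threshold of 0.05. The fit was also run on simulated data with normal noise and known changes. The outcome is not given here and lends no support to the results above. The rule for named genes took the members that passed, the 5 highest of the others, and those nearest the filter. The 5 lowest members fall outside it and were named to account for all 33. Zfp804b, Zfp955a and Zfp955b are members by the rule of symbol, although the written list of related genes had set symbols with a letter apart. Members and lists were chosen with earlier results of these data known. Near-identical transcripts came from BLAST+ 2.17.0 (90% identity over 80% of the transcript) and from aligned coding sequences of neighbouring members (Biopython 1.88), and overlaps from GENCODE M21, in which 29 of the 33 genes have the same position.

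The alternatives were pseudocounts of 0.1 and 5, other filters, other scalings, a block on the replicate number, array weights, robust=TRUE, trend=FALSE, voom on recovered reads with 10 or more in at least 3 libraries, and leaving out each library.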

Additional observations from a re-analysis of the deposited data

How the results depend on the processing

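No Zfp gene passed the threshold in any of the 18 alternatives, with a lowest limma adjusted p of 0.166. The count over all genes, 48 of 1737, was 14 of 10948 with no filter. It was 17 of 1737 with the replicate block and 15 to 27 of 1737 without 1 library. The cause was not tested. At such low shares over all genes, 0 calls among so few Zfp genes says little about them. With the replicate block 0 Zfp genes were called, as without it. Same-numbered libraries had correlations of 0.05, 0.14 and -0.08 between their deviations from the group means, so the numbers were not taken as pairs, and not every library correlated best with its own number. The median log2 difference of the tested Zfp genes, 0.02, was 0.056 over the 7 left by a filter at 5 FPKM, 0.055 with quantile normalization and 0.0059 to 0.050 without 1 library. Of the 23 genes, 13 kept their sign in every alternative in which they had a value. The sign of Zfp703 changed with a pseudocount of 0.1 (-0.017, and -0.017 with the filter at 0.1 FPKM), array weights (-0.042) and voom (-0.064), that of Zfp977 with a pseudocount of 5 (-0.0029), and that of Zfp963 with median-of-ratios scaling (0.0027) and quantile normalization (0.034). Without 1 library the values ran from -0.23 to 0.42 for Zfp703, -0.15 to 0.093 for Zfp977, -0.086 to 0.023 for Zfp963, -0.030 to 0.81 for Zfp966, -0.093 to 0.35 for Zfp882, -0.0029 to 0.13 for Zfp111, -0.061 to 0.073 for Zfp935, -0.012 to 0.12 for Zfp960, -0.15 to 0.038 for Zfp131 and -0.080 to 0.0012 for Zfp953. Zfp966 was also at 1.13 with a pseudocount of 0.1, 0.17 with 5 and 1.20 with voom, each without a passing adjusted p. The genes that a filter at 5 FPKM removed have no value under it. Read numbers limit the genes under 1 FPKM, and those of genes with several exons are approximate.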
